A study of Mus musculus with 8 samples.

Results

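The vascular endothelial growth factor (VEGF) genes examined here were the ligand genes *Vegfa*, *Vegfb*, *Vegfc* and *Pgf* and the receptor genes *Kdr*, *Flt1* and *Flt4*. They were chosen by gene symbol. All 7 were on the array, which held 42 spots for them among 33325 named and complete spots, and they made up 7 of the 18996 genes compared. Distal tips of E12.5 mouse lungs were separated into epithelium and mesenchyme, and 4 samples of each tissue were hybridized to 4 arrays of 2 colors, with 1 sample of each tissue on every array. The question was where each gene is expressed in the tip.

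The sample labels give strain C57bl/6J for every sample, the methods give wild type C57BL/6 embryos, and the series text names BALb/c, so the strain is not settled. No transgene or treatment is given for any sample. The labels call the material an organ homogenate and name the tissue under cell type. The methods describe tips dissected together with their mesothelium, digested with dispase and pulled apart with needles, so the mesenchyme samples can hold every cell type that surrounded the epithelium, those of vessels and blood included. Most smooth muscle and neural markers were higher in the epithelium samples, as given below, and which cell types these samples held was not tested. Epithelium carried the dye Cy3 and mesenchyme Cy5 on all 4 arrays with no swap, so dye and tissue cannot be told apart in any difference below. Every difference is given on the log2 scale as epithelium minus mesenchyme, so that a negative value means a higher signal in the mesenchyme. In whole tissue, fewer cells of a type and less RNA per cell cannot be told apart either.

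VEGF ligands are secreted proteins that act on receptor tyrosine kinases, mostly on endothelial cells, and drive the formation and growth of vessels. VEGF-A binds FLT1 (VEGFR1) and KDR (VEGFR2), VEGF-B and placental growth factor bind FLT1, and VEGF-C binds FLT4 (VEGFR3) and, once fully processed, KDR. In the embryonic lung, a capillary plexus in the mesenchyme surrounds the branching epithelium and grows along with it.

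All 7 genes passed the limma test at an adjusted p of 0.05 with the higher signal in the mesenchyme, where 24.8% of all genes tested did. None passed on the epithelium side (21.2% of all genes), and 45.9% of all genes passed on either side. Read at the brightest spot, the genes fell into 3 sizes of difference. *Kdr* and *Flt1* were 18.7-fold and 13.1-fold higher in the mesenchyme, *Vegfc* and *Flt4* were 4.24-fold and 2.80-fold higher, and *Vegfb*, *Vegfa* and *Pgf* were between 1.28-fold and 1.38-fold higher. The mesenchyme sample had the higher signal on each of the 4 arrays for every one of the 7 genes, and for none did the tissues overlap. Of all genes, 24% were free of overlap with the mesenchyme higher and 20.3% with the epithelium higher.

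**Figure D1:**
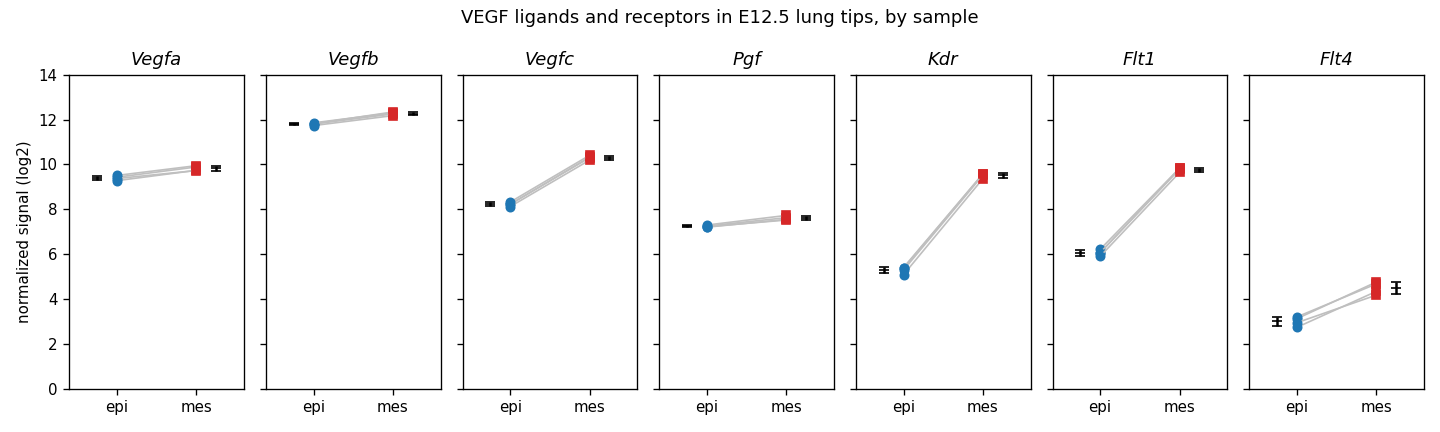
Normalized log2 signal of the 7 VEGF genes in each sample (y axis), with epithelium (epi, blue circles) beside mesenchyme (mes, red squares), grey lines joining the samples of one array and black marks for mean ± SD (n = 4). The lines rise steeply for *Kdr* and *Flt1*, by 4.23 and 3.71 on average, and gently for *Vegfb*, *Vegfa* and *Pgf*, by 0.47, 0.43 and 0.36. Heights of different panels come from different probes and cannot be compared.

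*Kdr* encodes the main signaling receptor for VEGF-A on endothelial cells and lies on chr5:75932827-75979072 (GRCm38.p6). Its log2 signal in the epithelium was 5.29, 5.08, 5.37 and 5.40 in samples 1 to 4. In the mesenchyme it was 9.53, 9.36, 9.57 and 9.58. The tissues stood far apart, with a gap of 3.97 between the highest epithelium and the lowest mesenchyme sample, while samples of one tissue lay within narrow bands. Mean signals were 5.28 ± 0.14 for epithelium and 9.51 ± 0.10 for mesenchyme (SD, n = 4 each). The difference was -4.23 (SE 0.09, 95% confidence interval -4.42 to -4.03, adjusted p = 2.89e-09 with limma). On the linear scale the epithelium had 5.34% of the mesenchyme signal. Of all genes, 37 (0.195%) had a difference further towards the mesenchyme.

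The *Kdr* result depended on which of its 20 spots was read. The 10 spots annotated to the *Kdr* RefSeq transcript gave differences of -4.36 to -4.17, and all 10 passed the test. The other 10, annotated to a single cDNA clone, gave -0.15 to 0.36, and none passed. The clone's spots were near the bottom of the scale in both tissues, with mean signals of 1.89 to 2.64 in the epithelium and 1.84 to 2.37 in the mesenchyme. Spots of the same kind lay close together, and whether they repeat a single oligonucleotide was not tested. When all 20 spots were averaged, the difference was -2.07.

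*Flt1* encodes a receptor that binds VEGF-A tightly and also occurs as a soluble form that traps the ligand. The gene lies on chr5:147561604-147726438. Epithelium samples read 6.06, 6.21, 6.06 and 5.90 on the log2 scale. Mesenchyme samples read 9.82, 9.83, 9.78 and 9.64. The tissues were again clearly apart, by a gap of 3.43, and the fourth sample was the lowest in both. The means of 6.06 ± 0.13 (SD, n = 4) and 9.77 ± 0.09 (SD, n = 4) gave a difference of -3.71 (SE 0.08, interval -3.89 to -3.53, adjusted p = 3.40e-09). The epithelium had 7.64% of the mesenchyme signal, and 68 genes (0.358%) had a lower difference.

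Of the 5 *Flt1* spots, 3 gave similar differences. The 2 spots of the RefSeq transcript gave -3.71 and -3.61, and a spot of a cDNA clone gave -3.55. A spot of a second clone gave 0.58 in the opposite direction (adjusted p = 0.0136), at dim signals of 3.13 in the epithelium and 2.56 in the mesenchyme. A spot of yet another clone gave 0.02 (adjusted p = 0.931), at still dimmer signals of 2.10 in the epithelium and 2.08 in the mesenchyme. Whether these clones match the soluble form, another isoform or intron sequence was not tested. The mean over all 5 spots gave -2.05.

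*Flt4* encodes the receptor for VEGF-C, which in the early embryo marks many vessels and later mainly lymphatic endothelium. It lies on chr11:49609679-49652739 and had 1 spot. The log2 signals of the epithelium samples were 2.73, 3.11, 3.19 and 2.94. Those of the mesenchyme samples were 4.33, 4.75, 4.67 and 4.17. Samples of one tissue spread more widely than for the other receptors, but the tissues still lay 0.97 apart. The difference was -1.49 (SE 0.15, interval -1.84 to -1.14, adjusted p = 5.04e-05), or 2.80-fold. The epithelium mean of 2.99 ± 0.21 (SD, n = 4) lay among the dimmest 30% of genes, where background limits how large a difference can be read, and the mesenchyme mean was 4.48 ± 0.28 (SD, n = 4).

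The sequences before the transcription starts of these genes are shown for the 3 receptors and for *Vegfa* and *Vegfb*, ligands with small differences, with the motif matches in view. RefSeq promoters (GRCm38.p6) matched all 7 genes. ETS factors, the family of *Etv2*, *Erg* and *Fli1* in endothelial cells, bind a GGA core, and the letters GGAAG were searched on both strands in the 250 bases before each start together with the GC box GGGCGG. In the lines below, capitals mark these 2 motifs or their reverse complements, CTTCC and CCGCCC, and all sequences run 5′ to 3′ on the strand of the gene. The windows of *Kdr* and *Flt1* lie inside the annotated span of the gene itself, before a start within it, as do both *Pgf* windows. For *Kdr* and *Flt1*, short stretches around each GGAAG match are given, of which the last 2 of *Flt1* overlap.
*Kdr* (chr5:75978654-75978683, minus strand): ggctacattttaCTTCCaccagaaaccgag
*Flt1* upstream match (chr5:147726122-147726151, minus strand): gcccctccgggaGGAAGaagagggtaggtg
*Flt1* middle match (chr5:147726065-147726094, minus strand): cttgacgtcactGGAAGgaggtgccggggt
*Flt1* downstream match (chr5:147726046-147726075, minus strand): ggtgccggggtaGGAAGtgggctggggaaa
*Flt4* (chr11:49609429-49609678, plus strand): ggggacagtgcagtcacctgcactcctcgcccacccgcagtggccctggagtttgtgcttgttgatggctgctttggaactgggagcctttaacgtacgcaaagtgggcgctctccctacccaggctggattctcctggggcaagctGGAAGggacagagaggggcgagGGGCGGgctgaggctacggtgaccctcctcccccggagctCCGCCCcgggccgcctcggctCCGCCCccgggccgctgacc
*Vegfa* (chr17:46032378-46032627, minus strand): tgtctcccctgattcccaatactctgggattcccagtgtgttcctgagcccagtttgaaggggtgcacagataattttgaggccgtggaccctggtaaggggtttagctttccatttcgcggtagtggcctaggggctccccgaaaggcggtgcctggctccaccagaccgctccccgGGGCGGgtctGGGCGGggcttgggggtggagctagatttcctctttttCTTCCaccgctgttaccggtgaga
*Vegfb* (chr19:6987652-6987901, minus strand): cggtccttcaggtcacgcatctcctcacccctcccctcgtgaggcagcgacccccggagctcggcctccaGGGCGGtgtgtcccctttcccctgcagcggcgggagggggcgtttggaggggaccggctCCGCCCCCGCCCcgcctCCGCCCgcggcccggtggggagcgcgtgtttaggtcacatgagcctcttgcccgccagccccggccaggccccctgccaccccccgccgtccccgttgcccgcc

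GGAAG had 3 matches before *Flt1* and 1 each before *Kdr*, *Flt4* and the first *Vegfa* start, and none in the windows of *Vegfb*, *Vegfc* and the first *Pgf* start. It was present in 65.3% of 18825 RefSeq promoter windows of the same length, so finding it in a given gene is common. The GC box was in the first window of all 7 genes, with 2 to 4 matches each, against 46.2% of all windows. The second window of *Vegfa* had 1 match and that of *Pgf* had none. The windows of the 7 genes held 59.2% to 76.4% G and C, above the median of 56.8% over all promoters. TATAAA was found before *Flt1* alone among the 7 (10.5% of all windows), AGATAA before *Vegfa* alone (8.17%), and ACGTG, the core that hypoxia-inducible factors bind, in a second *Vegfa* window before an internal start (18.7%). A match describes the letters and says nothing about binding.

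*Vegfc*, the ligand of FLT4, showed the largest difference among the ligands. It lies on chr8:54077532-54186454 and had 1 spot. Its log2 signal in the epithelium was 8.23, 8.22, 8.12 and 8.32. In the mesenchyme it was 10.30, 10.33, 10.19 and 10.41. In both tissues sample 3 was lowest and sample 4 highest, and the gap between them was 1.87. The means were 8.22 ± 0.08 and 10.31 ± 0.09 (SD, n = 4 each), a difference of -2.08 (SE 0.07, interval -2.24 to -1.93, adjusted p = 2.53e-08). The epithelium had 23.6% of the mesenchyme signal, well above the shares seen for *Kdr* and *Flt1*.

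*Vegfb* encodes a ligand of FLT1 linked mainly to heart and muscle and lies on chr19:6982472-6987651. Epithelium samples had log2 signals of 11.74, 11.86, 11.82 and 11.80. Mesenchyme samples had 12.18, 12.30, 12.34 and 12.25. The samples within a tissue were close, and the tissues were separated by a gap of 0.32. The difference was -0.47 (SE 0.06, interval -0.60 to -0.34, adjusted p = 0.00015), so that the epithelium had 72.3% of the mesenchyme signal. A second, dimmer spot gave -0.44 and also passed the test.

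*Vegfa* encodes the ligand that drives most vessel growth, and lies on chr17:46016993-46032377. Its log2 signal in the epithelium was 9.43, 9.51, 9.28 and 9.37. In the mesenchyme it was 9.89, 9.94, 9.74 and 9.73. The tissues did not overlap, but the gap of 0.22 was small beside that of the receptors. Means of 9.40 ± 0.10 and 9.82 ± 0.11 (SD, n = 4 each) gave a difference of -0.43 (SE 0.08, interval -0.60 to -0.25, adjusted p = 0.0016). The epithelium thus had 74.4% of the mesenchyme signal, and 3115 genes (16.4%) had a lower difference.

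The 12 *Vegfa* spots, all annotated to 1 RefSeq transcript, were all higher in the mesenchyme. Their differences ran from -0.43 for the brightest spot, which stands for the gene above, to -0.19. The dimmest spot gave -0.38. The 10 spots in between had a median of -0.26 and a range of -0.30 to -0.19, so the brightest spot gave the largest value. In the test over all spots, 9 of the 12 passed and 3 did not, with adjusted p of 0.0564 to 0.101. The mean over the 12 spots gave -0.28, over 1.5 times smaller than the value of the brightest spot.

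*Pgf* encodes placental growth factor, another FLT1 ligand, and lies on chr12:85166637-85177785 with 1 spot. From sample 1 to 4, the log2 signal read 7.22, 7.20, 7.25 and 7.30 in the epithelium. It read 7.52, 7.55, 7.62 and 7.72 in the mesenchyme. The tissues did not overlap and lay 0.22 apart. With means of 7.24 ± 0.04 and 7.60 ± 0.09 (SD, n = 4 each), the difference was -0.36 (SE 0.06, interval -0.50 to -0.22, adjusted p = 0.00118).

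At the brightest spot of each gene, the differences in order of size were *Kdr*, *Flt1*, *Vegfc*, *Flt4*, *Vegfb*, *Vegfa* and *Pgf*. The 95% intervals of *Kdr* and *Flt1* did not meet, nor did those of *Flt1* and *Vegfc*, of *Vegfc* and *Flt4*, or of *Flt4* and *Vegfb*. The intervals of *Vegfb*, *Vegfa* and *Pgf* overlapped one another, so no order among these 3 ligands can be read from the data. With the mean over all spots the order changes, since *Kdr* (-2.07) and *Flt1* (-2.05) then lie beside *Vegfc* (-2.08), and *Vegfa* (-0.28) lies closer to 0 than *Pgf* (-0.36). The means of *Kdr* and *Flt1* include spots that were dim in both tissues, as given above. The differences between genes were not tested as such, and the epithelium signal of *Flt4* was dim, as given above. The 3 small differences stood on the mesenchyme side of the median over all genes, which was -0.03.

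**Figure D2:**
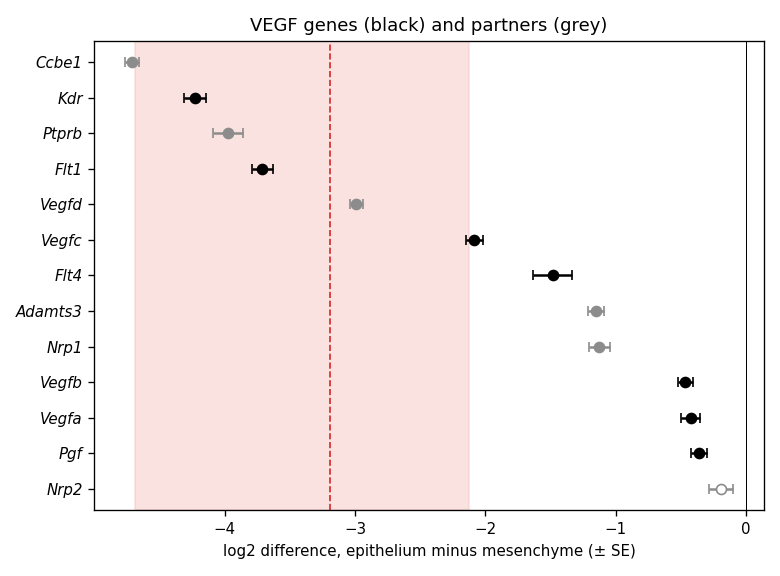
Log2 difference, epithelium minus mesenchyme, ± SE (x axis; 4 samples per tissue) for the 7 VEGF genes (black) and 6 partner genes (grey), with an open circle where the test was not passed. The pink band spans the range of 20 endothelial markers read at their brightest spots (-4.68 to -2.12) and the dashed line is their median (-3.20). *Kdr* and *Flt1* lie inside the band, while *Vegfc* lies just outside and *Flt4*, *Vegfb*, *Vegfa* and *Pgf* lie further out.

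**Figure D3:**
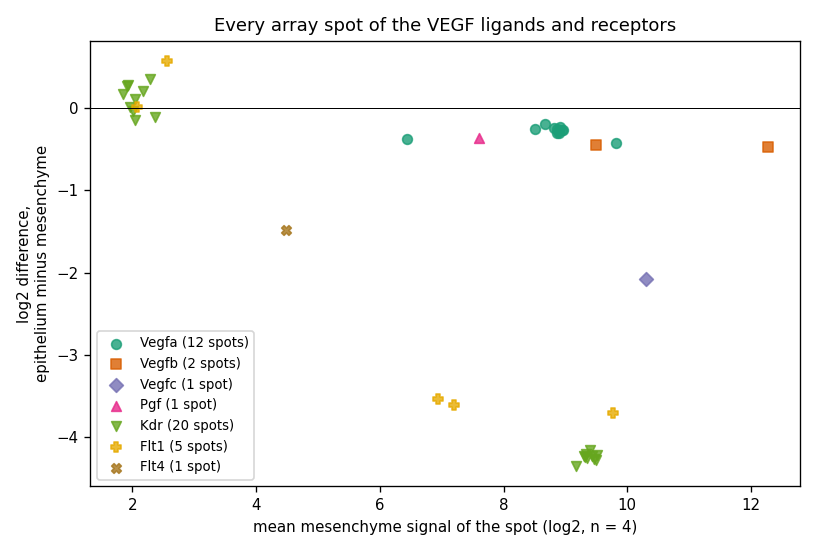
Log2 difference, epithelium minus mesenchyme (y axis), against the mean log2 mesenchyme signal (x axis, n = 4) for each of the 42 spots of the 7 VEGF genes. The *Kdr* spots split into a bright set near -4.24 and a dim set near 0.14 (medians of 10 spots each), and the 12 *Vegfa* spots all lie between -0.43 and -0.19.

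A panel of endothelial markers was read alongside, since *Kdr* and *Flt1* are themselves used to mark these cells. All 20 markers passed towards the mesenchyme (24.8% of all genes did), at a median difference of -3.20 and a range of -4.68 to -2.12. These values hold for the brightest spots. The weakest spots gave 0.04 for *Vwf*, -0.44 for *Pecam1* and -0.61 for *Clec14a*, named after their values were seen. In the epithelium, *Pecam1* read 5.32 in sample 2 and 3.30 in each of the others. The leading ones were *Cdh5*, which encodes VE-cadherin (-4.68), the stem and vessel cell marker *Cd34* (-4.62), the endothelial surface protein gene *Emcn* (-4.27) and the matrix protein gene *Mmrn2* (-3.99). Their mean level was 6.49 to 6.72 in the epithelium samples and 9.86 to 9.92 in the mesenchyme samples, and the median marker had 10.9% of its mesenchyme signal in the epithelium. Of the 20, 3 lay further towards the mesenchyme than *Kdr* and 5 further than *Flt1*, whereas all 20 lay further than each of the other 5 VEGF genes. Only 1 of the 20 was among the dimmest 30% of genes in the epithelium. That line is a rank among genes and no limit of detection, and the part of endothelial cells left in the epithelium samples was not tested.

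Most partner genes of the pathway, which process ligands or assist receptors, followed the same direction. Of the 6, 5 were higher in the mesenchyme, against 24.8% of all genes. *Ccbe1*, whose product is needed to activate VEGF-C, had the largest difference at -4.71 (SE 0.05, 26.2-fold), but its 4 spots ranged to -0.14. *Adamts3*, the protease that cleaves VEGF-C, gave -1.15 (SE 0.06), with -0.28 at its other spot. The *Vegfc* gene and those of both activators of its product were therefore on the same side.

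*Vegfd*, a further ligand of FLT4, had log2 signals of 5.47, 5.47, 5.42 and 5.37 in the epithelium. In the mesenchyme they were 8.47, 8.39, 8.45 and 8.39. The samples within each tissue nearly coincided, and the difference was -2.99 (SE 0.05, 7.95-fold, adjusted p = 1.39e-09). *Ptprb*, the phosphatase VE-PTP that restrains KDR and TEK, gave -3.98 (SE 0.11), from an epithelium signal among the dimmest 30%. Of the co-receptor genes, *Nrp1*, which assists KDR, gave -1.13 (SE 0.08) with -0.25 at the weakest of its 3 spots, and *Nrp2*, which assists FLT4, gave -0.19 (SE 0.09, adjusted p = 0.13). With the array as a block, *Nrp2* passed at an adjusted p of 0.00779, but its other spot gave 0.26.

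Genes that carry the signal inside the cell had mostly small differences. Of the 25 genes analysed from the 31 of the receptor signal chain, 13 passed towards the mesenchyme, 5 towards the epithelium and 7 did not pass, and the list median was -0.21. Over all genes these shares were 24.8% and 21.2%, so the count towards the epithelium is near the background. The largest was that of *Nos3*, the nitric oxide synthase of endothelial cells, at -3.45 (SE 0.12, 10.9-fold), and its 10 spots gave -3.84 to -3.28. Far smaller were those of the stress protein gene *Hspb1* (-0.72) and of *Prkcb*, a protein kinase C gene (-0.66, with 0.14 at its other spot). *Shb*, which encodes an adaptor of KDR, was higher in the epithelium at 0.92 (SE 0.09). The count of 5 fell to 3 without epithelium sample 2, mesenchyme sample 2 or mesenchyme sample 4.

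Genes that mark endothelial tip cells or respond to VEGF lay mostly towards the mesenchyme. Of 12 analysed from 13, 7 passed towards the mesenchyme and 3 towards the epithelium (median -1.14). Over all genes these shares were 24.8% and 21.2%, so the count towards the epithelium is near the background. *Esm1*, a secreted proteoglycan of tip cells, gave -5.46 (SE 0.06), with its epithelium signal among the dimmest 30%. *Hlx*, a transcription factor gene induced by VEGF in cultured endothelial cells, gave -2.96 (SE 0.13). *Pdgfb*, the growth factor that recruits pericytes, gave -2.95 (SE 0.11) from an equally dim epithelium signal, and *Apln*, a peptide ligand of sprouting vessels, gave -2.78 (SE 0.07) with -0.17 at the weakest of its 3 spots. In the other direction, the chemokine receptor gene *Cxcr4*, named after its value was seen, was 1.63 higher in the epithelium, and the other 2 genes on that side, *Angpt2* and *Nr4a1*, by 0.25 and 0.21. The Notch ligand gene *Dll4*, likewise named after its value was seen, gave -0.72 and did not pass (adjusted p = 0.0686), and without epithelium sample 4 it gave -1.04 (adjusted p = 0.000105).

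*Vegfa* is a known target of the oxygen response, so genes of oxygen sensing and other targets of hypoxia-inducible factors (HIF) were read with it. Of the 10 oxygen sensing genes, 3 passed towards each tissue and 4 did not pass, with a median of 0.05. These counts are near the shares over all genes (24.8% mesenchyme, 21.2% epithelium) and show nothing about the list. *Epas1*, the HIF subunit gene prominent in endothelial cells, gave -2.62 (SE 0.17), but its other spot gave -0.15 and its epithelium signal was among the dimmest 30%. *Hif1a* (0.51, SE 0.05) and the prolyl hydroxylase gene *Egln3* (1.07, SE 0.06), itself induced by HIF, were higher in the epithelium. *Hif1an*, the asparagine hydroxylase that inhibits HIF, gave 0.46 at its brightest spot and -0.17 at the other end of its 3 spots. With the array as a block, the counts were 5 for the epithelium and 4 for the mesenchyme, beside 5035 and 5877 of all 18996 genes.

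Of the 14 HIF targets, 4 passed towards each tissue and 6 did not pass, with a median of -0.08, again near the 24.8% and 21.2% of all genes. The glycolysis regulator gene *Pfkfb3* (-1.04, SE 0.05) and the collagen prolyl hydroxylase gene *P4ha1* (-0.71, SE 0.16) were higher in the mesenchyme. *Pdk1*, whose product holds pyruvate back from the mitochondria, was higher in the epithelium (0.97, SE 0.07). The vasodilator peptide gene *Adm* gave -0.81 and did not pass (adjusted p = 0.0528), although it did with the array as a block (adjusted p = 0.00291). The block raised the count in the mesenchyme from 4 to 7 and that in the epithelium from 4 to 5. It also raised the counts over all 18996 genes, from 4704 to 5877 for the mesenchyme and from 4024 to 5035 for the epithelium. The small *Vegfa* difference stood beside targets with differences in either direction.

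Transcription factors of endothelial cells were almost all on the side of the receptors. Of the 16, 15 passed towards the mesenchyme (median -2.25), against 24.8% of all genes. The largest were *Sox7* (-4.80), *Tal1* (-4.72), *Sox17* (-4.63) and *Lmo2* (-4.08). *Sox7* and *Sox17* act in arterial and early endothelium, and *Tal1* and *Lmo2* in both endothelial and blood cells. The weakest of the 4 *Sox17* spots gave -0.07, and the other *Sox7* spot -1.50. *Foxc1*, named after its value was seen, was the only factor higher in the epithelium (0.29).

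In the neighboring angiopoietin pathway, 3 of 5 genes were higher in the mesenchyme, against 24.8% of all genes. They were the receptor gene *Tek* (-3.33), its ligand gene *Angpt1* (-2.75, with a dim epithelium signal) and the related receptor gene *Tie1* (-2.12). The other spots of *Tek* and *Angpt1* gave -1.39 and -1.76. *Angpt2*, which encodes a context-dependent antagonist of TEK, was 0.25 higher in the epithelium (SE 0.07, adjusted p = 0.015). Of 5 lymphatic genes analysed from 6, *Lyve1* was higher in the mesenchyme (-3.67), and *Prox1* (2.38), *Pdpn* (0.89) and *Itga9* (0.68) were higher in the epithelium, each of them also known outside lymphatic vessels. Over all genes, 24.8% passed towards the mesenchyme and 21.2% towards the epithelium. The weakest of 3 spots gave 0.40 for *Prox1* and 0.08 for *Itga9*. *Flt4*, which marks many vessels in the early embryo, was on the side of *Lyve1* and opposite to *Prox1*, *Pdpn* and *Itga9*. The leukocyte and endothelial markers were on the side of *Lyve1* too, so the lymphatic list gives no single reading. With the mean over all spots of a gene, 2 lymphatic genes were higher in the mesenchyme in place of 1.

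**Figure D4:**
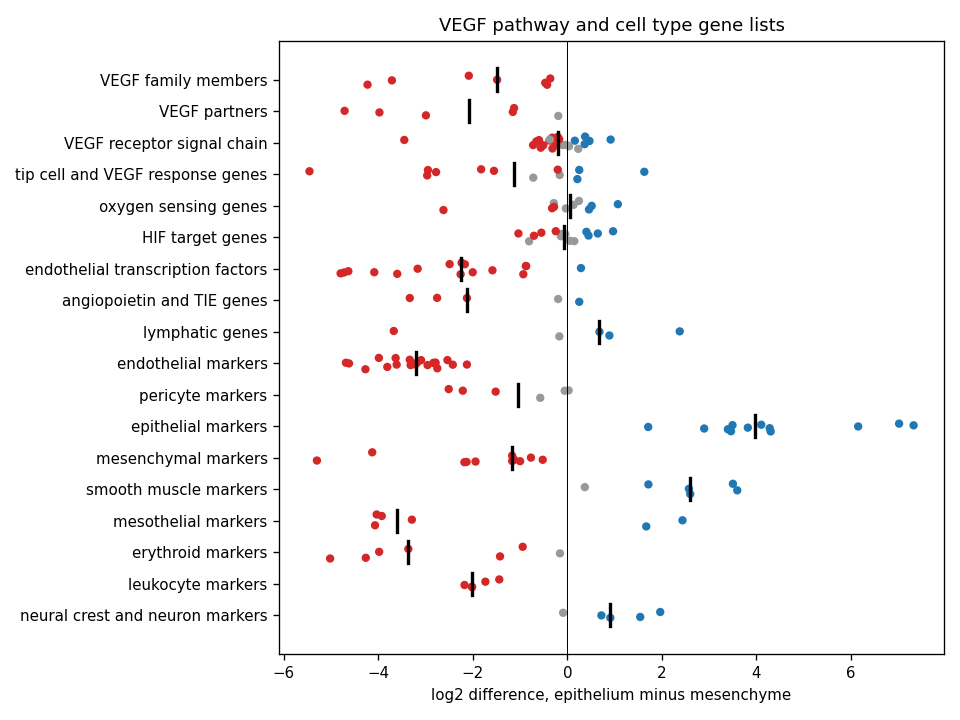
Log2 difference, epithelium minus mesenchyme (x axis), of each gene in the VEGF pathway and cell type lists (rows), colored by the test: red, higher in mesenchyme; blue, higher in epithelium; grey, not passed. Black bars are list medians, which lie at -1.49 for the VEGF genes, -3.20 for endothelial markers, -2.25 for endothelial transcription factors and -0.08 for HIF targets.

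Across genes, samples correlated at 0.995 to 0.997 inside a tissue and at 0.964 to 0.968 across tissues. The labelled tissues carried their defining markers. Read at the brightest spots, all 12 epithelial markers were higher in the epithelium (median 3.96) and all 12 mesenchymal markers in the mesenchyme (median -1.17). Other spots gave 0.27 for *Pdgfra*, 0.10 for *Vim*, -0.09 for *Col3a1* and 0.70 for *Grhl2*, genes named here after their values were seen. The mean level of the epithelial markers was 12.08 to 12.15 in epithelium samples and 7.54 to 7.98 in mesenchyme samples, and that of the mesenchymal markers 8.52 to 8.55 and 10.38 to 10.47. Among the epithelial markers, *Krt8* read 12.25 in mesenchyme sample 4 and 8.95 to 9.42 in the other mesenchyme samples. Several other cell types moved with the tissues as well. Pericyte markers were mixed, with 3 of 6 higher in the mesenchyme (median -1.04). The other 3, *Abcc9* (-0.57), *Notch3* (-0.06) and *Cspg4* (0.03), did not pass, and the last 2 are named after their values were seen. Erythroid markers (6 of 7 higher in the mesenchyme, median -3.36) and leukocyte markers (5 of 5, median -2.02) moved with *Kdr* and *Flt1*, as did 4 of 6 mesothelial markers (median -3.61). The other 2 mesothelial markers, *Msln* (2.44) and *Krt7* (1.67), passed towards the epithelium and are named after their values were seen. Smooth muscle markers (5 of 6, median 2.59) and neural markers (4 of 5, median 0.91) were higher in the epithelium at their brightest spots. The weakest of the 14 *Acta2* spots gave -0.13, and the other spots of *Elavl3* and *Sox10* gave -0.10 and 0.29. Over all genes, 24.8% passed towards the mesenchyme and 21.2% towards the epithelium. The part of each cell type in the VEGF differences was not tested.

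The genes whose profile over the 8 samples was most like each VEGF gene were found by the root mean square distance after each gene's own mean was subtracted. *Kdr* lay nearest to the endothelial genes *Emcn* (distance 0.102) and *Procr* (0.112) and to *Colec10* (0.115), and no gene lay within 0.1 of it. *Flt1* lay nearest to *Nxph3* (0.06) and to the hemoglobin genes *Hba-a1* (0.07) and *Hbb-bt* (0.08), with 7 genes within 0.1. *Flt4* had no close neighbor, and its nearest genes were *Barx1* (0.12), *Rnase4* (0.14) and *Lst1* (0.14).

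Among the ligands, *Vegfc* was followed by *Hcls1*, *Gsto1* and *St3gal6*, each at 0.05, with 29 genes within 0.1. The 3 ligands of small difference had far more company, with 451 genes within 0.1 of *Vegfa*, 572 of *Vegfb* and 772 of *Pgf*. *Vegfa* was closest to *Renbp* (0.02), *Gstm3* and *Snhg8* (0.03 each), *Vegfb* to *Nme4*, *Cth* and *Gstm1* (0.03 each) and *Pgf* to *Tm2d2*, *Hsph1* and *Luc7l2* (0.03 each). With 8 samples in 2 tissues, the distance mostly reads the size of the difference between tissues.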

How the data were processed

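Expression was measured in 4 epithelium and 4 mesenchyme samples of E12.5 mouse lung tips. The deposited log2 values are 1 signal per array feature and sample. According to the methods, the authors corrected mean spot signals for background with normexp on negative control spots (offset 1), took logarithms and applied quantile normalization. The base of the logarithm is not given there, and the range of 1.34 to 15.88 was read as log2. Both dyes appear in the labels but only Cy3 in the methods, and the labels were followed. The submitters' processing notes name limma. Sample medians were 4.05 to 4.14. Precision is limited by the small number of arrays.

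Of 45220 features, 33653 had 1 gene in the platform annotation, 56 had several and 11511 were unnamed here. Through RefSeq (GRCm38.p6) 33517 were matched, 136 kept the platform name and no symbol changed. The 523 features missing on any array were left out, a step chosen once the values were known. Each gene was read from its brightest spot over the 8 samples, as in the methods, but without first averaging replicate spots. More than 1 spot was available for 8226 of the 18996 genes.

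The comparison used limma 3.58.1 (lmFit, eBayes; R 4.3.3) without pairing. P-values were adjusted by Benjamini-Hochberg across the 18996 genes, and those under 0.05 were called. Of all genes, 4024 (21.2%) passed towards the epithelium and 4704 (24.8%) towards the mesenchyme. Single spots were tested in a fit over all spots. The steps were tested on simulated data. Other software was pandas 2.3.3 and matplotlib 3.10.9 under Python 3.11.15.

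Nothing in the sources ties samples to separate embryos beyond the count in the series text, so the p-values reflect only how far these samples vary, and that variation may be technical. Samples of the same number share an array, and their deviations from the tissue means correlated at 0.35, 0.62, 0.53 and 0.47, against at most -0.04 for other numbers. The deviations were taken from means of the same 4 samples, so a positive value for one number lowers those for the others. The values for other numbers are therefore no independent baseline. By the shared array the numbers pair the samples, while the tests of the main comparison were unpaired.

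The genes and lists were chosen with earlier results of these data known. Named genes are the 7 VEGF genes with all their spots, the 6 partners, up to 4 genes of each other list with the largest differences, and the 3 genes of nearest profile for each VEGF gene. Alternatives were the array as a block, leaving out each sample, the mean over all spots, single spots, a filter on the dimmest 30% of genes, centering on medians, an intensity trend with robust prior and, added after seeing the data, replicate spots averaged first.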

Additional observations from a re-analysis of the deposited data

Results flagged for a closer look

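Of 194 groups of 4 samples among the 97 genes named by rule, 11 (5.67%) held a sample far from the other 3, where chance gives about 1 in 20, and none belonged to a VEGF ligand or receptor. Mesenchyme sample 3 was low for the endothelial marker *Cd34* (12.85, others 13.04 to 13.07) and for the heme synthesis gene *Alas2* (9.39, others 9.58 to 9.61), and high for the neuronal gene *Elavl4* (7.51, others 7.39 to 7.41). Mesenchyme sample 4 was high for *Hlx* (6.87, others 6.62 to 6.65) and for *Luc7l2* (10.88, others 10.67 to 10.69). Epithelium sample 3 was low for *Angpt2* (7.63, others 7.78 to 7.80) and *Hspb1* (7.41, others 7.68 to 7.73) and high for *Nos3* (4.46, others 4.07 to 4.12). Epithelium sample 1 was low for the embryonic globin gene *Hbb-bh1* (8.06, others 8.37 to 8.42) and for *Hif1an* (7.66, others 7.69 to 7.70), and epithelium sample 2 was high for *Gstm1* (10.76, others 10.65 to 10.66).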

How the results depend on the processing

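Each of the 7 VEGF genes kept its direction and its call when any of the 8 samples was left out and under the 6 other settings for the gene as a whole. Leaving out 1 sample gave -4.28 to -4.16 for *Kdr*, -3.76 to -3.66 for *Flt1*, -2.12 to -2.05 for *Vegfc*, -1.59 to -1.40 for *Flt4*, -0.50 to -0.44 for *Vegfb*, -0.46 to -0.39 for *Vegfa* and -0.39 to -0.32 for *Pgf*, and the highest adjusted p was 0.00615, for *Vegfa*. The count of genes called in all was 8728, 7968 to 8438 without 1 sample, 10912 with the array as a replicate block and 8273 of 13297 genes without the dimmest 30%. The block added 12 calls among 176 genes of the lists and removed none, and changed no call of a VEGF gene.

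The choice of spot had the largest effect. Single *Kdr* spots gave 0.36, 0.21, 0.11, 0.28, 0.28, 0.0174 and 0.17 in the opposite direction and -0.10, -0.0331 and -0.15 in the same direction, none past the threshold. Single *Flt1* spots gave 0.58 and 0.0205. Single *Vegfa* spots gave -0.22, -0.30 and -0.25 without passing. With the mean over all spots, *Pik3r1* turned to 0.18 and *P4ha2* to 0.21, and *Pik3r1* also turned to 0.18 with replicate spots averaged first. The cause was not tested. Signals near background limit *Flt4*, the dim *Kdr* and *Flt1* spots and, among the partner genes, *Ptprb*.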
